A study of Homo sapiens with 6 samples.

Results

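The collagen genes were taken as every row of the table whose symbol has the form COL, a type number, A and a chain number, and 44 of the 61806 rows met this. Of these, 13 had a mean of at least 1 FPKM (fragments scaled to exon length and library size) over the 6 libraries and are called measured here. The other 31 lay under 1, and 2 of them, COL22A1 and COL6A5, had no count in any library. The lowest measured mean was 1.18 FPKM, for COL4A2, and the highest mean under 1 was 0.965 FPKM, for COL7A1.

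The libraries were made from poly(A)-selected RNA of Ishikawa cells, an established human endometrial adenocarcinoma line grown in DMEM with serum. The 3 comparison libraries carry the genotype label EV, which the sources used here do not spell out, and the other 3 came from TEFM-overexpressing derivatives of the line. TEFM is an elongation factor for transcription in mitochondria. Neither group was treated, per the labels, and the sources used here name no vector, promoter or number of clones. The submitters call the replicates independent and biological, and p-values below measure the spread between these libraries alone. TEFM itself lay at 4.13, 4.24 and 4.55 FPKM in EV and at 23.65, 22.72 and 23.98 FPKM in TEFM. It was 5.60-fold higher (log2 fold change 2.48, standard error (SE) 0.0788, edgeR adjusted p = 9.75e-18).

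Depth ran from 14252668 to 17891047 counts, and 6184 of the 14254 genes tested passed an adjusted p of 0.05, which is 43.4% of them. A change past the threshold was therefore common in these libraries. Fibroblast markers, the genes of the main collagen-producing cells of most tissues, were near absent: 8 of them summed to 0.15 to 0.44 FPKM in EV and 0.15 to 0.63 FPKM in TEFM, and DCN and DPT had no counts. Endothelial markers summed to 0.27 to 0.39 and 0.45 to 0.53 FPKM, leukocyte markers to 0.09 to 0.32 and 0.04 to 0.44 FPKM, and smooth muscle markers to 1.04 to 1.45 and 1.53 to 2.76 FPKM. Of the smooth muscle markers DES rose (log2 fold change 1.07, edgeR adjusted p = 0.00230), reaching a mean of 1 FPKM through TEFM alone, while ACTG2 had 0.21, 0.16 and 0.21 FPKM in EV and 0.06, 0.09 and 0.11 FPKM in TEFM, and neither ACTG2, CNN1 nor MYH11 passed without the filter (edgeR adjusted p = 0.231, 0.143 and 0.870). Without the filter the endothelial markers PECAM1 and KDR (edgeR adjusted p = 0.00983 and 0.0454) and the fibroblast marker THY1 (edgeR adjusted p = 0.00153) were higher in TEFM, at 0.11, 0.0367 and 0.317 FPKM against 0.0267, 0 and 0.133 FPKM. In that fit 3.36% of genes with a mean under 1 FPKM were higher in TEFM. THY1 had 0.09, 0.07 and 0.24 FPKM in EV and 0.42, 0.39 and 0.14 FPKM in TEFM, so its groups overlapped. KDR had only 4, 4 and 3 counts in TEFM. The endothelial markers VWF, CDH5 and TEK did not pass (edgeR adjusted p = 0.610, 0.331 and 0.483), and TEK was lower in TEFM (0.01 against 0.04 FPKM). No other fibroblast marker passed. Epithelial markers summed to 528 to 576 FPKM in EV and 692 to 720 FPKM in TEFM. Of these markers 6 of 7 rose, where 21.7% of all tested genes were higher. Any part of the markers that moved in the collagen results was not tested. In bulk RNA such as this, fewer cells of a kind and less RNA per cell cannot be told apart.

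Collagens are secreted proteins of the extracellular matrix in which chains wind into a helical trimer. Fibrillar collagens (types I, II, III, V, XI, XXIV and XXVII) build fibrils, and the fibril-associated collagens with interrupted helices, or FACIT collagens (types IX and XII among them), sit on the surface of those fibrils. Type IV forms the sheet of basement membranes, type VI forms beaded microfibrils next to them, the multiplexins XV and XVIII lie in or beside the membrane, and type VII anchors it to the stroma. In the endometrium, epithelial glands rest on a basement membrane, while the surrounding stroma makes most of the fibrillar collagen.

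In FPKM the summed level of collagen RNA was slightly lower in TEFM than in EV, and in counts it was not. Its makeup differed more, with a smaller share of FACIT and fibrillar collagens and a larger share of type VI. All 44 rows summed to 83.34, 84.66 and 90.62 FPKM in EV (86.2 ± 3.88, SD, n = 3). In TEFM they summed to 81.64, 83.22 and 79.99 FPKM (81.6 ± 1.62). Every TEFM library lay just under the lowest EV library, the closest at 83.22 against 83.34 FPKM. These sums carry no TMM scaling, which the fold changes do. Its factors were 1.006 to 1.018 in EV and 0.982 to 0.991 in TEFM, so that order depends on the scaling. In counts, which are not scaled to length, collagen genes had 573 ± 21.4 CPM (counts scaled to library size) in EV and 581 ± 9.07 CPM in TEFM, and the groups overlapped. FACIT collagens went from 34.5% of the summed collagen FPKM to 23.4%, with EV libraries between 33.7% and 35.4% and TEFM libraries at 23.3% to 23.4%. Type VI went from 32.3% to 42.9%, with libraries at 31.3% to 33.1% and 42.1% to 43.4%. Type IV was level at 11.1% and 11.2%. Fibrillar collagens went from 8.39% to 5.58% and multiplexins from 8.0% to 9.58%. COL6A1, COL9A2 and COL6A2, the genes with the highest mean, made up 49.7% of the sum in EV and 57.3% in TEFM. These shares are descriptions and were not tested.

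**Figure D1:**
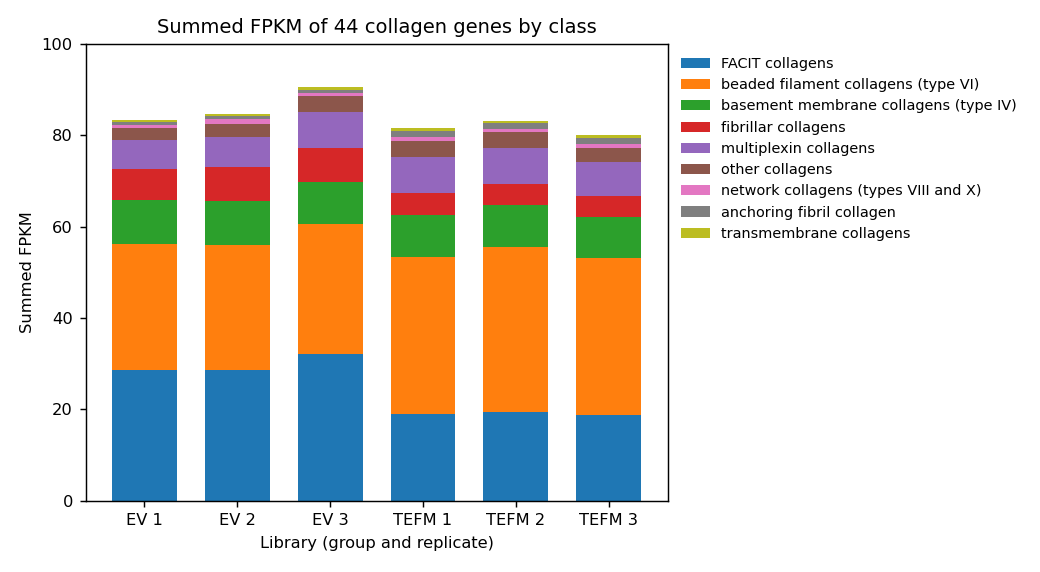
Stacked bars of summed FPKM of the 44 collagen genes in each library (x axis: EV and TEFM libraries by replicate; y axis: summed FPKM), coloured by collagen class. The total stays between 79.99 and 90.62, while the FACIT segment shrinks from a mean of 29.8 to 19.1 FPKM and the type VI segment grows from 27.8 to 35.0 FPKM.

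Among the 13 measured genes, 10 passed the threshold, 6 of them higher and 4 lower in TEFM, which is 76.9% against the 43.4% of all genes tested. Over all tested genes 21.7% were higher and 21.7% lower. COL6A1, COL6A2, COL4A2, COL4A4, COL12A1 and COL15A1 rose, and COL2A1, COL9A2, COL9A3 and COL4A5 fell. COL1A1, COL18A1 and COL26A1 did not pass. The scaled counts of the groups did not overlap for the same 10 genes, where 51.1% of all tested genes had groups apart. Only COL2A1 and COL9A3 changed by at least 2-fold, against 3.47% of tested genes. Over the 13 measured genes the log2 fold change had a median of 0.28 and a median size of 0.51, beside -0.00 and 0.21 over all tested genes. COL2A1 reached the mean of 1 FPKM through EV alone and COL4A2 through TEFM alone, so these counts describe the measured genes and are no support for a change of the family. The 4 genes that fell lost 16.5 FPKM in sum and the 6 that rose gained 9.96 FPKM.

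**Figure D2:**
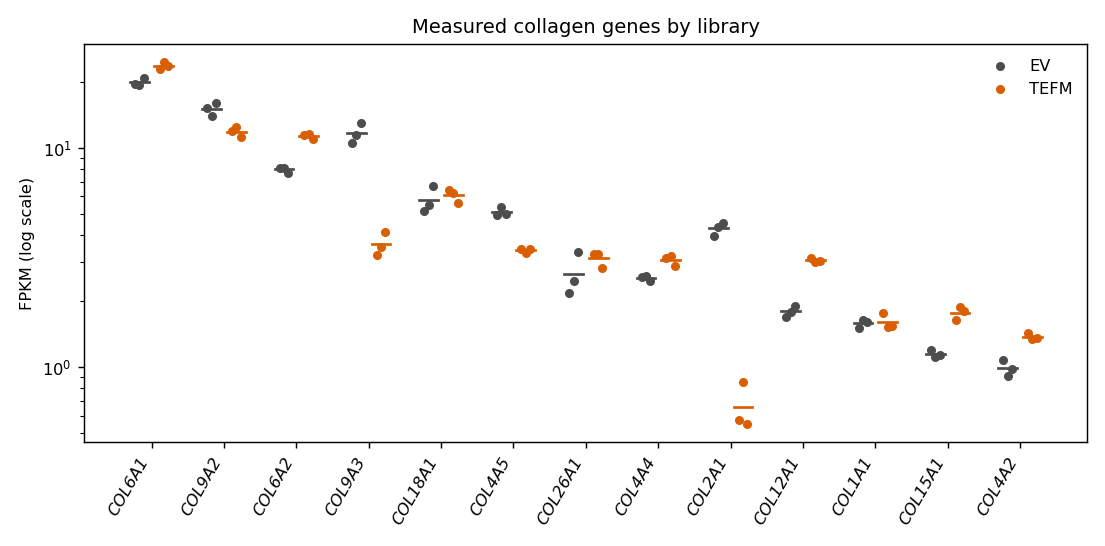
FPKM of the 13 measured collagen genes in each library on a log axis (x axis: genes ordered by mean level), with EV in grey, TEFM in orange and short horizontal lines at the group means. COL6A1 is highest, at 19.9 in EV and 23.7 in TEFM, and on this axis the widest gap between groups is that of COL2A1.

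**Figure D3:**
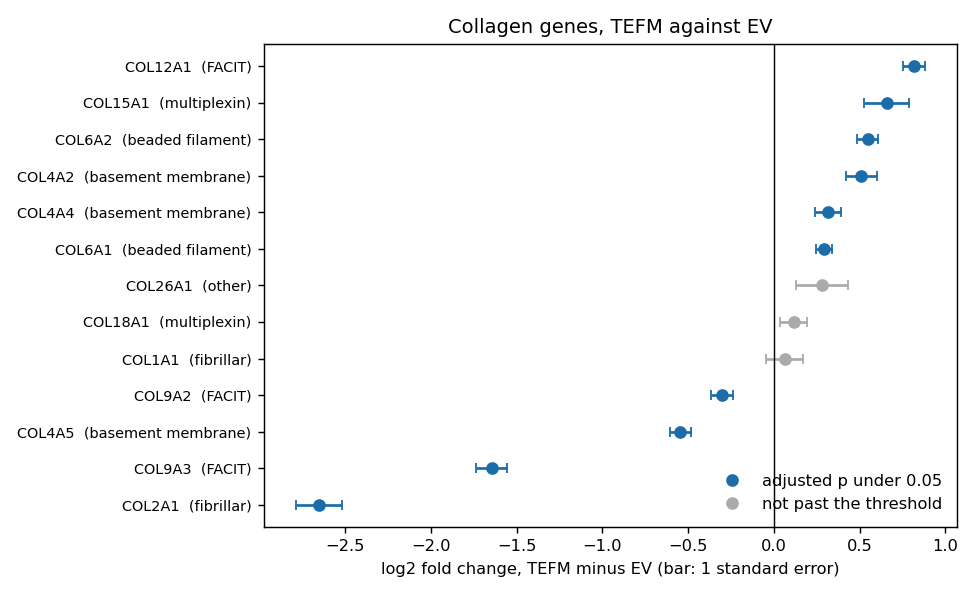
log2 fold change (TEFM minus EV) of the 13 measured collagen genes with 1 standard error, with the class of each gene beside its symbol. Blue points passed an adjusted p of 0.05 and grey points did not, and values run from -2.65 for COL2A1 to 0.82 for COL12A1.

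The fibrillar collagen COL2A1, the chain of type II collagen that makes up the fibrils of cartilage, showed the largest fold change of the measured genes. COL2A1 (ENSG00000139219, chr12:47972967-48004554, minus strand) lay at 3.96, 4.36 and 4.54 FPKM in EV and at 0.57, 0.85 and 0.55 FPKM in TEFM, from 472, 438 and 485 counts against 64, 99 and 52. Every EV library was above every TEFM library. It fell by 6.30-fold (log2 fold change -2.65, SE 0.134, edgeR adjusted p = 7.10e-14), and the 57 tested genes that start within 2 Mb of it had a median log2 fold change of 0.09. COL11A1, a chain of the type XI collagen that is found within type II fibrils, was low in every library, with 28, 27 and 21 counts in EV and 2, 9 and 12 in TEFM, and the groups did not overlap. Without the filter on low values it fell by 1.65 on the log2 scale (edgeR adjusted p = 0.00156). That call weakened to an edgeR adjusted p of 0.0495 without TEFM replicate 1, where the log2 fold change was -1.19. COL11A2, another type XI chain, had 0.17, 0.34 and 0.26 FPKM in EV and 0.25, 0.28 and 0.44 FPKM in TEFM, and the groups overlapped (edgeR adjusted p = 0.509).

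Type I collagen, the main fibril of stroma and bone, was low in both groups. COL1A1 lay at 1.51, 1.64 and 1.60 FPKM in EV and at 1.77, 1.52 and 1.53 FPKM in TEFM. The groups overlapped (log2 fold change 0.06, SE 0.110, edgeR adjusted p = 0.689). Its partner chain COL1A2 lay under 1, at 0.14, 0.13 and 0.17 FPKM in EV and 0.34, 0.19 and 0.21 FPKM in TEFM, with TEFM replicate 1 above the rest and no overlap. Without the filter it passed (log2 fold change 0.80, edgeR adjusted p = 0.0316), but without TEFM replicate 1 it did not (0.50, edgeR adjusted p = 0.414), nor without EV replicate 1 (0.77, 0.0859) or EV replicate 2 (0.72, 0.112). COL3A1, a fibril chain of soft stroma, had 17, 10 and 8 counts in EV and 9, 3 and 2 in TEFM, with groups that overlapped, and COL5A2 lay at 0.27 to 0.33 FPKM in EV and 0.23 to 0.33 FPKM in TEFM. Neither passed (edgeR adjusted p = 0.166 and 0.847).

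COL27A1, a fibrillar collagen known from cartilage and other tissues, moved opposite to COL2A1. It lay at 0.33, 0.24 and 0.23 FPKM in EV and at 1.15, 1.12 and 1.31 FPKM in TEFM, from 82, 50 and 51 counts against 273, 276 and 262. Every TEFM library was above 1 FPKM and every EV library under 0.34. COL27A1 rose by 4.58-fold (log2 fold change 2.19, SE 0.151, edgeR adjusted p = 7.31e-46 without the filter). That p cannot be set beside those of the main fit. For COL2A1 the edgeR adjusted p was 7.10e-14 in the main fit and 2.26e-94 without the filter. The 26 tested genes starting within 2 Mb of it had a median log2 fold change of -0.09.

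Type IX collagen, the FACIT collagen that decorates type II fibrils in cartilage, is built from the chains COL9A1, COL9A2 and COL9A3, which lie on different chromosomes, and all of them were lower in TEFM by unequal amounts. COL9A3 (ENSG00000092758, chr20:62816244-62841159, plus strand) lay at 10.53, 11.43 and 12.93 FPKM in EV and at 3.23, 3.53 and 4.12 FPKM in TEFM. The groups were far apart, and COL9A3 fell by 3.13-fold (log2 fold change -1.65, SE 0.0907, edgeR adjusted p = 3.29e-13). TCFL5, which overlaps COL9A3 on the other strand, had 12.1 FPKM in EV and 11.6 FPKM in TEFM. Whether strand was kept is not given, so their reads could be shared. COL9A2 had 15.12, 13.97 and 15.99 FPKM in EV and 11.92, 12.41 and 11.14 FPKM in TEFM, and again no libraries overlapped. Its fall was smaller (log2 fold change -0.31, SE 0.0640, edgeR adjusted p = 0.000403).

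COL9A1 (ENSG00000112280, chr6:70216040-70303084, minus strand) was counted in EV alone. It had 71, 57 and 58 counts in EV (0.38, 0.37 and 0.35 FPKM) and 0 counts in each TEFM library. The 186 counts of EV against a floor of 3 counts over the TEFM group, which a count of 0 allows, make it at least 59.95-fold lower in TEFM. That floor covers counting error only and equals 0.00596 FPKM. Without the filter the edgeR adjusted p was 1.04e-32, and DESeq2 without the filter gave an adjusted p of 2.41e-10. The 7 tested genes starting within 2 Mb of COL9A1 had a median log2 fold change of -0.35, with 2 of them higher and 3 lower. Over the 17 tested genes starting within 5 Mb the median was -0.03.

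The FPKM ratio of COL9A2 to COL9A3 went from 1.30 ± 0.119 in EV to 3.30 ± 0.526 in TEFM. COL9A2 was above COL9A3 in every library of both groups, and every TEFM ratio was above every EV ratio. The exact permutation test of this ratio gave p = 0.1, two-sided, and so did each of the 3 ratios tested (adjusted p = 0.1), the smallest p that 3 libraries against 3 allow.

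The region before COL9A1 is shown because this gene went from clearly counted to no count. The letters are the 250 bases before its most upstream start, from RefSeq on GRCh38.p14, chr6:70303085-70303334, minus strand, written 5′ to 3′. Which start these cells use was not tested. They were searched on both strands for the CCAAT box, for the GC box spelled GGGCGG, for the TATA box spelled TATAAA and for a core that SOX factors bind, spelled AACAAT. None of these letters were found. Of all 250-base windows in the promoter table, 32.0%, 42.6%, 10.7% and 8.98% hold them.
COL9A1: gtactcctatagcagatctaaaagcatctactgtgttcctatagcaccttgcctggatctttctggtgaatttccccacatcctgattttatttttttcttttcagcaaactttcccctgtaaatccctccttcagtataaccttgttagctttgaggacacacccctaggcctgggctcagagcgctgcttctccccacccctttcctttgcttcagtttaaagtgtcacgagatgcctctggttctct
For COL27A1, which changed in the other direction, the matching window on chr9:114155287-114155536, plus strand, holds 2 GC boxes, in capitals.
COL27A1: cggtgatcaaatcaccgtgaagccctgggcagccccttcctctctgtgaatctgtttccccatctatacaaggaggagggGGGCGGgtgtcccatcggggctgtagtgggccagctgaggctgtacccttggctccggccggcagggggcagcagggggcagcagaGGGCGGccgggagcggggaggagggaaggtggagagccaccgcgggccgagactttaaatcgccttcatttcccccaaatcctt
The COL9A1 window is 45.6% G and C and that of COL27A1 64.4%, without a value over all windows to set them against. Any part of these letters in the changes of the genes was not tested. A match is a description of these letters and no evidence of a bound factor.

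The other FACIT collagens moved in both directions. COL12A1, a FACIT collagen of type I fibrils, had 1.69, 1.78 and 1.9 FPKM in EV and 3.13, 3.02 and 3.05 FPKM in TEFM, and all TEFM libraries were higher. It rose by 1.76-fold (log2 fold change 0.82, SE 0.0657, edgeR adjusted p = 3.31e-10). COL21A1 lay at 0.95, 0.99 and 0.88 FPKM in EV and 0.71, 0.48 and 0.39 FPKM in TEFM, with no overlap, and fell in the fit without the filter (log2 fold change -0.80, SE 0.193, edgeR adjusted p = 0.000352). The remaining FACIT genes COL14A1, COL16A1, COL19A1 and COL20A1 had at most 14 counts over all libraries.

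Type VI collagen showed the highest levels, and both of its measured chains rose. COL6A1 (chr21:45981770-46005050) lay at 19.55, 19.37 and 20.70 FPKM in EV and 22.95, 24.57 and 23.50 FPKM in TEFM. COL6A2 (chr21:46098112-46132848), its neighbour on the same strand, lay at 8.05, 8.11 and 7.70 FPKM in EV and 11.44, 11.53 and 10.94 FPKM in TEFM. For both genes every TEFM library was above every EV library. COL6A1 rose by a log2 fold change of 0.29 (SE 0.0463, edgeR adjusted p = 1.48e-05) and COL6A2 by 0.55 (SE 0.0611, edgeR adjusted p = 8.43e-08).

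Tested genes starting within 2 Mb of these type VI genes, 38 and 37 in number, had a median log2 fold change of 0.03. The FPKM ratio of COL6A1 to COL6A2 was 2.50 ± 0.163 in EV and 2.10 ± 0.0775 in TEFM, with no overlap (exact permutation p = 0.1, two-sided). The chain that completes the type VI trimer was barely counted: COL6A3 had 0, 1 and 0 counts in EV and 4, 5 and 0 in TEFM, COL6A6 had 5 counts over all libraries, and COL6A5 had none.

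The type IV genes lie in head-to-head pairs, each transcribed away from a short shared region, and the pairs did not move alike. COL4A1 and COL4A2 encode the chains of nearly all basement membranes, COL4A3, COL4A4 and COL4A5 form the network of the kidney filter, and COL4A5 pairs with COL4A6 in other membranes. COL4A2 (chr13:110305812-110513209, plus strand) had 1.08, 0.91 and 0.98 FPKM in EV and 1.43, 1.34 and 1.35 FPKM in TEFM, without overlap, and rose (log2 fold change 0.51, SE 0.0900, edgeR adjusted p = 5.92e-05). With limma on log2(FPKM + 1) the same gene did not pass (adjusted p = 0.0774). COL4A1 (chr13:110148963-110307157, minus strand) had 49, 64 and 70 counts in EV and 111, 157 and 137 in TEFM, which is 0.19 to 0.30 FPKM against 0.45 to 0.66 FPKM. Without the filter it rose by a log2 fold change of 1.18 (SE 0.182, edgeR adjusted p = 2.02e-09). The spans of both genes overlap at their starts, so reads there could be shared.

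COL4A4 (chr2:227002714-227164453, minus strand) had 2.57, 2.61 and 2.47 FPKM in EV and 3.13, 3.22 and 2.90 FPKM in TEFM, without overlap, and rose (log2 fold change 0.32, SE 0.0747, edgeR adjusted p = 0.00130). Its partner COL4A3 (chr2:227164624-227314792, plus strand) had 86, 54 and 54 counts in EV and 101, 125 and 70 in TEFM. In FPKM the EV libraries reached 0.39 and the lowest TEFM library was 0.40. Without the filter COL4A3 rose (log2 fold change 0.64, SE 0.193, edgeR adjusted p = 0.00625), but not without TEFM replicate 2 (0.50, edgeR adjusted p = 0.122).

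COL4A5 (chrX:108439838-108697545, plus strand) had the highest level of the type IV genes in EV and moved the other way. It lay at 4.95, 5.34 and 4.99 FPKM in EV and 3.44, 3.30 and 3.45 FPKM in TEFM, without overlap, and fell (log2 fold change -0.55, SE 0.0625, edgeR adjusted p = 1.27e-07). The 18 tested genes starting within 2 Mb of COL4A5 had a median log2 fold change of -0.12. Of these, 7 were lower and 1 higher, beside 21.7% in each direction over all tested genes. Any part of the region in this fall was not tested. COL4A6 (chrX:108155607-108439497, minus strand) had 66, 34 and 38 counts in EV and 34, 29 and 31 in TEFM. EV replicate 1 was the highest and the groups overlapped (log2 fold change -0.50, edgeR adjusted p = 0.251). The FPKM ratio of COL4A4 to COL4A5, chains of the same trimer, was 0.501 ± 0.0161 in EV and 0.909 ± 0.0676 in TEFM (exact permutation p = 0.1, two-sided). Since COL4A4 rose and COL4A5 fell without overlap, that p was fixed in advance and is no further support. Levels of these chains were nearly equal in TEFM, while in EV COL4A5 was well above COL4A4.

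Sequence between the starts of these pairs is shown because it lies between genes transcribed away from each other. RefSeq on GRCh38.p14 puts the starts 127, 419 and 380 bases apart. The whole stretch is printed for COL4A1 and COL4A2, and for the other two pairs only the 170 bases next to COL4A3 and the 250 bases next to COL4A5, so the values given are for these letters alone. The letters are on the plus strand, from chr13:110307158-110307283, chr2:227164454-227164623 and chrX:108439588-108439837, and capitals mark the CCAAT box (or ATTGG, the reverse complement) and the GC box, spelled GGGCGG (or, on the other strand, CCGCCC).
COL4A1 and COL4A2: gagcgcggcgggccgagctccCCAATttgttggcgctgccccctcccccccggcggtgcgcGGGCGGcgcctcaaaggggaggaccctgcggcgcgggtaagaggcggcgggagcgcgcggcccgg
COL4A3 and COL4A4: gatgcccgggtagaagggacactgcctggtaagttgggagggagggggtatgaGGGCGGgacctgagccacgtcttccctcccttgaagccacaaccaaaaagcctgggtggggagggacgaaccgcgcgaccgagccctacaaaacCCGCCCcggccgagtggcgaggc
COL4A5 and COL4A6: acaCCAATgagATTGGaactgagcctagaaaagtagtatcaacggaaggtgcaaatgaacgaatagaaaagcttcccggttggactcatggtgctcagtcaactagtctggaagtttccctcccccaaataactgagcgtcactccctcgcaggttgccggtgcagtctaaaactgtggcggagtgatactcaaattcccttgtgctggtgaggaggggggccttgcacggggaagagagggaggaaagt
The COL4A1 and COL4A2 region has 80.2% G and C, 1 CCAAT match and 1 GC box, matches that 21.1% and 34.6% of promoter windows of its 126 bases hold. The COL4A3 and COL4A4 region has 65.9% G and C and 2 GC boxes (38.3% of windows of 170 bases hold at least 1). The region of COL4A5 and COL4A6 has 51.2% G and C and 2 CCAAT matches (32.0% of windows of 250 bases hold at least 1). No GC box was found in these letters.

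The multiplexins gave a rise for COL15A1 and no call for COL18A1. COL15A1, a collagen at the outer face of basement membranes, lay at 1.2, 1.11 and 1.13 FPKM in EV and 1.63, 1.87 and 1.79 FPKM in TEFM, without overlap (log2 fold change 0.66, SE 0.132, edgeR adjusted p = 0.000258). COL18A1, the precursor of endostatin, lay at 5.13, 5.48 and 6.69 FPKM in EV and 6.40, 6.18 and 5.59 FPKM in TEFM. EV replicate 3 was the highest of the 6, and the gene did not pass (log2 fold change 0.11, SE 0.0789, edgeR adjusted p = 0.261). Without that library it passed (0.23, edgeR adjusted p = 0.00847). SLC19A1, which overlaps COL18A1, had 2.91 FPKM in EV and 2.87 FPKM in TEFM. COL26A1, a collagen with an EMI domain, had the same shape, with 2.18, 2.46 and 3.33 FPKM in EV and 3.28, 3.27 and 2.83 FPKM in TEFM (0.28 on the log2 scale, edgeR adjusted p = 0.147). It too passed without EV replicate 3 (0.47, edgeR adjusted p = 0.0153).

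COL7A1, the anchoring fibril collagen of epithelia, lay just under the level taken as measured and rose. It had 0.65, 0.61 and 0.72 FPKM in EV and 1.38, 1.19 and 1.24 FPKM in TEFM, and every TEFM library was above 1 (log2 fold change 0.97, SE 0.136, edgeR adjusted p = 3.37e-11 without the filter). COL8A2, a network collagen known from the cornea, had 0.51, 0.78 and 0.63 FPKM in EV and 0.86, 0.65 and 0.81 FPKM in TEFM, which overlap (edgeR adjusted p = 0.480).

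The transmembrane collagens, which sit in the cell membrane and can be shed from it, were low in both groups, with edgeR adjusted p of 0.132 or more without the filter. COL23A1 had 0.21, 0.32 and 0.20 FPKM in EV and 0.31, 0.22 and 0.29 FPKM in TEFM (edgeR adjusted p = 0.760), and COL25A1 had 0.10, 0.09 and 0.19 FPKM in EV and 0.17, 0.12 and 0.14 FPKM in TEFM (edgeR adjusted p = 0.693). COL17A1, the collagen of hemidesmosomes in skin, had 12, 2 and 13 counts in EV and 7, 20 and 10 in TEFM (edgeR adjusted p = 0.610). COL13A1 had 10, 17 and 18 counts in EV and 7, 9 and 4 in TEFM, with every TEFM library under every EV library in counts (log2 fold change -1.14, edgeR adjusted p = 0.132).

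The rest of the low genes overlapped between groups. COL28A1 had 0.35, 0.33 and 0.22 FPKM in EV and 0.13, 0.21 and 0.23 FPKM in TEFM (-0.63 on the log2 scale, edgeR adjusted p = 0.212). The fibrillar chain COL24A1 had 15, 8 and 20 counts in EV and 35, 11 and 11 in TEFM, with TEFM replicate 1 the highest (edgeR adjusted p = 0.562). COL10A1, the network collagen of growth plate cartilage, lay at 0.08 to 0.17 FPKM in EV and 0.04 to 0.20 FPKM in TEFM (edgeR adjusted p = 0.879). COL5A1 and COL8A1 had 26 and 22 counts over all libraries and COL5A3 had 1.

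Of the 31 genes with a mean FPKM under 1, 29 had counts, and without the filter 8 passed, where 5.43% of the 23002 tested genes under 1 FPKM did. COL7A1, COL27A1, COL4A1, COL4A3 and COL1A2 were higher (3.36% of those genes) and COL9A1, COL11A1 and COL21A1 lower (2.07%). Depth limits this count: 15 of the 31 had at least 100 counts over all libraries, and 7 of these passed, where 26.1% of genes of that depth and level did. Over all 37256 genes with a count 18.7% passed, 9.46% higher and 9.23% lower, beside 18 collagen genes, 11 higher and 7 lower, when the measured ones are included. Another 9 had fewer than 20 counts, too few to show any but a large change.

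**Figure D4:**
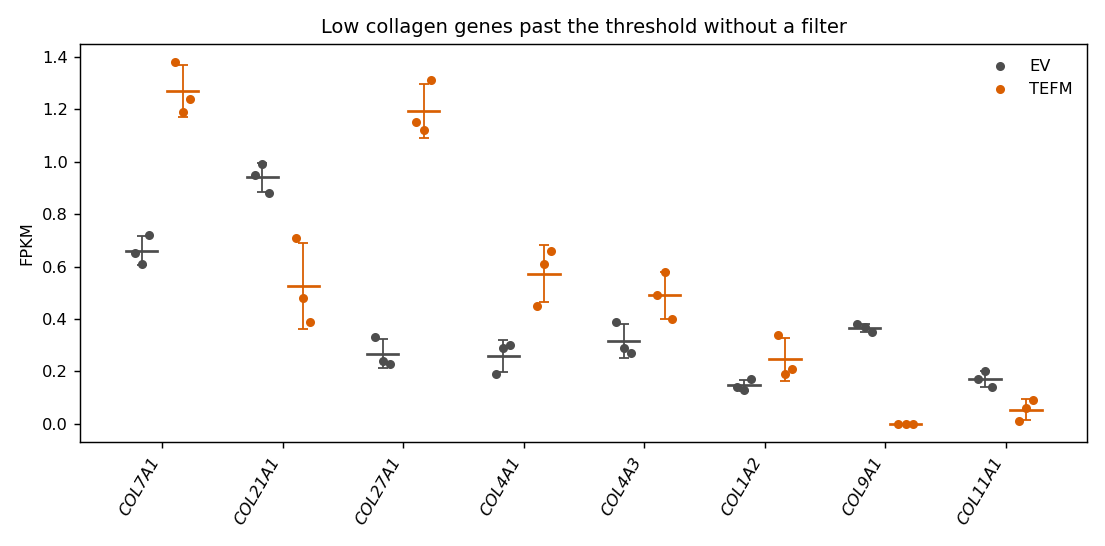
FPKM of the 8 collagen genes with a mean FPKM under 1 that passed an adjusted p of 0.05 without a filter (y axis, linear; x axis: genes), with EV in grey and TEFM in orange. Points are libraries and horizontal lines with whiskers give mean ± SD (n = 3): COL27A1 and COL7A1 exceed 1 FPKM in TEFM, and COL9A1 has no counts there.

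Genes that fold, export, process and bind collagen were read from the same fit, in which 43.4% of all genes tested passed, 21.7% in each direction. Of 16 tested genes of collagen modification and folding, 6 rose, 5 fell and 5 did not pass, with a median log2 fold change of 0.08. SERPINH1, the collagen chaperone of the endoplasmic reticulum, lay at 15.90, 16.71 and 17.68 FPKM in EV and 30.46, 28.93 and 28.86 FPKM in TEFM and rose by a log2 fold change of 0.85 (edgeR adjusted p = 1.65e-13). P3H3, of the prolyl hydroxylase family, went from 1.44 ± 0.158 to 3.43 ± 0.455 FPKM (1.30, edgeR adjusted p = 2.90e-08). P4HB, a subunit of the main prolyl hydroxylase of collagen, went from 45.0 ± 2.33 to 53.0 ± 1.73 FPKM (0.28, edgeR adjusted p = 3.96e-06). In the same list COLGALT2, which adds galactose to collagen, and FKBP10, a folding helper, fell (-1.03 and -0.42, edgeR adjusted p = 8.87e-06 and 5.28e-05).

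Of 7 genes of collagen export from the endoplasmic reticulum, all tested, 4 rose, 2 fell and 1 did not pass, beside 43.4% passing over all tested genes, with a median of 0.13. MIA2, of the exit sites, went from 8.78 ± 0.805 to 4.99 ± 0.127 FPKM and fell by 0.77 on the log2 scale (edgeR adjusted p = 3.18e-10). KLHL12, the adaptor of the ligase that enlarges coated vesicles, fell by 0.41 (edgeR adjusted p = 5.73e-05). The coat genes SEC24D, SEC31A and SEC13 rose by 0.22, 0.25 and 0.16 (edgeR adjusted p = 0.000979, 0.0112 and 0.0148). SEC31A and SEC13 did not pass in some alternatives, among them limma (log2 fold change 0.17 and 0.12 with a pseudocount of 1).

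Outside the cell, procollagen ends are trimmed and chains cross-linked. Of 13 such genes 8 were tested, and 3 rose, 2 fell and 3 did not pass (43.4% of all tested genes passed), with a median of 0.13. LOX, the cross-linking lysyl oxidase, lay at 5.07, 5.41 and 4.83 FPKM in EV and 2.99, 3.22 and 3.05 FPKM in TEFM and fell by 0.69 on the log2 scale (edgeR adjusted p = 7.78e-07). ADAMTS14, which removes the amino end, rose (1.18, edgeR adjusted p = 1.34e-06), as did PCOLCE, an enhancer of trimming at the other end (0.68, edgeR adjusted p = 0.000453). LOXL1, a lysyl oxidase relative, rose and PCOLCE2 fell (0.94 and -0.62, edgeR adjusted p = 0.00234 and 0.0180), but neither passed with limma.

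Of 9 genes of collagen breakdown 3 were tested, and MMP14, a membrane-bound collagenase, rose from 10.3 ± 0.311 to 12.1 ± 0.127 FPKM (0.28, edgeR adjusted p = 0.000472), where 21.7% of all tested genes were higher. PEPD and CTSK did not pass (-0.06 and 0.06), and the median was 0.06. Without the filter MMP1 and MMP2, both under 1 FPKM, were higher in TEFM (edgeR adjusted p = 0.00690 and 0.000984). Their means were 0.02 and 0.14 FPKM in EV and 0.20 and 0.397 FPKM in TEFM. MMP1 had 2, 0 and 1 counts in EV and 18, 4 and 5 in TEFM, with TEFM replicate 1 far above the rest. MMP9, MMP13 and MRC2 did not pass, and MMP8 had no counts. In that fit 3.36% of genes under 1 FPKM were higher.

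Among the receptors, 4 of 10 were tested, and 1 rose, 2 fell and 1 did not pass (median -0.09), beside 21.7% in each direction over all tested genes. DDR1, a collagen-activated receptor kinase of epithelia, went from 7.45 ± 0.561 to 9.71 ± 0.546 FPKM and rose (0.42, edgeR adjusted p = 2.10e-06). ITGA1, the integrin subunit that prefers type IV collagen, lay at 1.98, 1.63 and 2.03 FPKM in EV and 0.76, 0.96 and 0.89 FPKM in TEFM and fell by 1.07 on the log2 scale (edgeR adjusted p = 5.12e-09). ITGA2 had a log2 fold change of -0.14 at the threshold (edgeR adjusted p = 0.0488), and ITGB1 did not pass (-0.05, edgeR adjusted p = 0.258).

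Of 11 matrix partners of collagen 6 were tested, 3 higher and 3 lower, beside 21.7% in each direction over all tested genes, with a median of 0.26. NID2, a nidogen that links type IV collagen to laminin, lay at 1.44, 1.15 and 1.19 FPKM in EV and 5.69, 5.21 and 5.13 FPKM in TEFM, the largest change among the tested genes of these lists (log2 fold change 2.12, SE 0.105, edgeR adjusted p = 4.82e-14). PXDN, which cross-links type IV collagen, and SPARC, which binds collagen, rose (0.76 and 1.06, edgeR adjusted p = 9.63e-07 and 0.000118). The heparan sulfate proteoglycan AGRN and fibronectin, FN1, fell (-0.68 and -0.62, edgeR adjusted p = 3.51e-10 and 1.07e-07). COLGALT2, ADAMTS14, LOXL1, PCOLCE2, ITGA1 and SPARC reached a mean of 1 FPKM through one group alone.

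**Figure D5:**
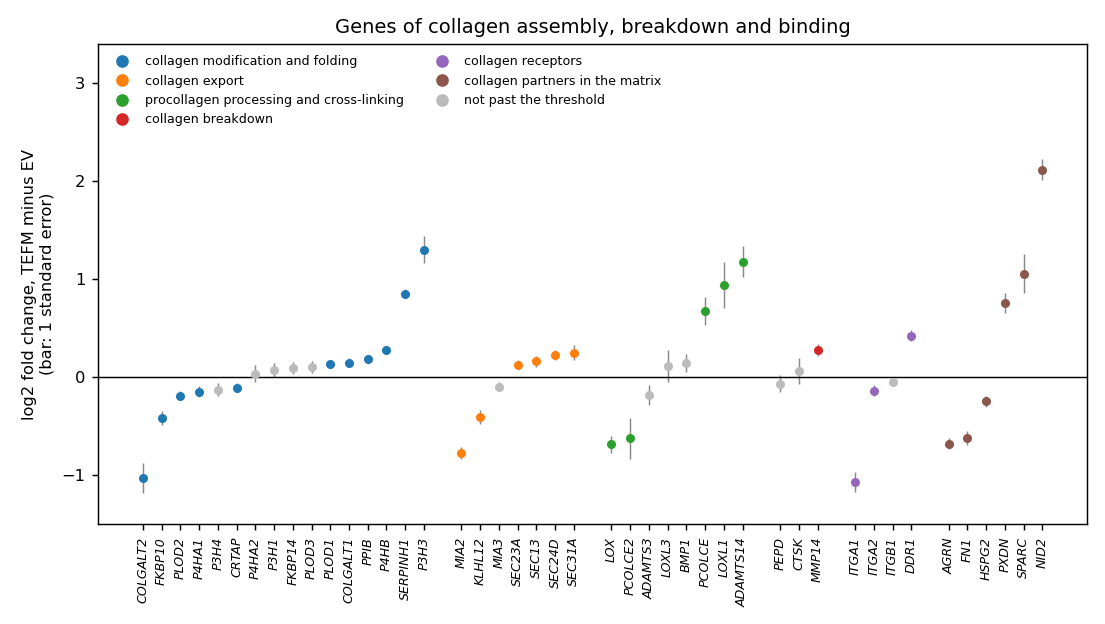
log2 fold change (TEFM minus EV) with 1 standard error for every tested gene of the 6 lists of collagen-related genes, ordered by value within each list. Coloured points passed an adjusted p of 0.05 and grey points did not, and values run from -1.07 for ITGA1 to 2.12 for NID2.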

How the data were processed

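Gene expression was measured in 6 poly(A) RNA-seq libraries, 3 per group, grouped by the labels' genotype. The deposited table holds raw counts per gene and FPKM, per the file headers and the values. The authors' FPKM equal the counts scaled to exonic gene size and library total, recomputed to within 0.005. Per the submitters' processing notes, cutadapt 1.9.1 was used and hg19 was the build. No source used here gives the aligner, the counter, its use of strand or its handling of shared reads. The coordinates are those of GRCh38: all 44 collagen rows overlap their GENCODE v29 genes and 37 share an exact start or end. They are printed as deposited.

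Counts of the 14254 genes that averaged 1 FPKM or more entered edgeR 4.0.16 (R 4.3.3; quasi-likelihood F test, two-sided, TMM scaling). P-values were adjusted by the Benjamini-Hochberg method over all of them, and 0.05 was the threshold. Standard errors come from the F statistic. The fit was tested on simulated data. Collagen genes under 1 FPKM were read from the same fit on all 37256 genes with a count, of which 18.7% passed, adjusted over these. P-values with and without the filter are not on one scale. COL9A3 had an edgeR adjusted p of 3.29e-13 with the filter and 2.12e-88 without it. Alternatives covered scaling, filters, limma 3.58.1 with pseudocounts of 1 and 0.1, DESeq2 1.42.0, a robust fit, leaving out each library and a replicate block. Leaving out libraries and DESeq2 without the filter were added for the genes under 1 FPKM after seeing the data.

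Replicates were not copies of one library (chi-square per degree of freedom 2.17 to 4.78 within groups and 26.1 to 34.2 between them). The members, gene lists and tests were chosen with earlier results of these data known. Named are all measured collagen genes, the 5 others of highest mean (COL7A1, COL21A1, COL27A1, COL8A2 and COL4A1), the tested members with the lowest p in each list, up to 5, and TEFM. Other genes are named after their values were seen. Promoter letters came from a RefSeq table (GRCh38.p14) that holds 32 of the 44 symbols.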

Additional observations from a re-analysis of the deposited data

How the results depend on the processing

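All 10 measured collagen genes that passed kept direction and threshold under each scaling, the robust fit, DESeq2, no filter, filterByExpr and every fit with a library left out. Limma with a pseudocount of 1 or 0.1 lost COL4A2 (adjusted p = 0.0774 and 0.0943). A mean FPKM of at least 5 left 4 collagen genes that passed, 2 higher and 2 lower, since fewer were tested, and 2046 genes higher in all, beside 3092. No filter gave 18 (11 higher, 7 lower), as did filterByExpr (18, 11 and 7). At a mean FPKM of at least 5, 0 processing and cross-linking genes and 2 matrix partners passed; edgeR then tested none of the 5 processing genes that had passed. Limma gave 3 processing genes with either pseudocount. Breakdown genes numbered 3 without a filter and 2 with filterByExpr. With each library left out, 10 to 12 collagen genes passed (12 without EV replicate 3), and COL1A1 ran from -0.015 to 0.10, reversing without TEFM replicate 1 (the cause was not tested). The 3 chain ratios (log2, TEFM minus EV) ran from -0.29 to -0.20, 1.25 to 1.48 and 0.80 to 0.91. Of the 8 genes under 1 FPKM, DESeq2 lost COL1A2 (adjusted p = 0.106). Leaving out libraries gave 7 to 8 of them. ITGA2 did not pass in 11 alternatives. Depth limits the 9 collagen genes with fewer than 20 counts most.

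With a replicate block, 10 collagen genes passed (6 higher, 4 lower) and 5935 of all tested genes, beside 6184. The labels link same-numbered libraries by number alone. Their deviations correlated at -0.0126, 0.0293 and -0.0149, within the range of differently numbered libraries (-0.0654 to 0.0725). These values do not settle whether the libraries were paired.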

Other observations

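Genes known from cartilage were looked up after the values of COL2A1 and COL9A1 had been seen. SOX9, the transcription factor known to drive type II, IX and XI collagen genes in cartilage, lay at 16.76, 17.29 and 18.30 FPKM in EV and 9.75, 9.81 and 10.03 FPKM in TEFM. All TEFM libraries were lower (log2 fold change -0.78, SE 0.0610, edgeR adjusted p = 1.72e-10). SOX6, its partner, had 0.87, 0.97 and 0.78 FPKM in EV and 0.37, 0.31 and 0.34 FPKM in TEFM, under the level tested, and fell without the filter (-1.33, edgeR adjusted p = 4.16e-22). SOX5, the other partner, had 2.46 ± 0.346 and 2.34 ± 0.204 FPKM, and its groups overlapped (edgeR adjusted p = 0.832). ACAN, the aggrecan of cartilage matrix, went the other way at very low counts, with 0 in each EV library and 7, 2 and 9 in TEFM, and passed without the filter (edgeR adjusted p = 0.00311). MATN3 had 0.27, 0.17 and 0.18 FPKM in EV and 0.26, 0.51 and 0.29 FPKM in TEFM and did not pass (edgeR adjusted p = 0.249), nor did MATN1, CNMD and SNORC (edgeR adjusted p = 0.949, 0.539 and 0.509). HAPLN1 and COMP had no counts. Any part of SOX9 or SOX6 in the collagen levels was not tested.

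Some collagen-related genes under 1 FPKM passed in the fit without a filter. FMOD, the fibril-binding proteoglycan fibromodulin, had 0.07, 0.09 and 0.16 FPKM in EV and 0.66, 1.24 and 0.83 FPKM in TEFM (edgeR adjusted p = 7.28e-13). LOXL2, a lysyl oxidase relative, had 0.34, 0.38 and 0.30 FPKM in EV and 0.67, 0.89 and 1.2 FPKM in TEFM (edgeR adjusted p = 5.89e-09). For both genes every TEFM library was above every EV library. They were chosen after their values were seen.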
